A study of Mus musculus with 16 samples.

Results

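The response to CD28 costimulation was read from 8 of the 16 arrays of the study: 4 arrays of wild-type naive CD4 T cells cultured with beads carrying anti-CD3 and anti-CD28 (called the CD3CD28 arrays here), and 4 arrays of wild-type cells cultured with beads carrying anti-CD3 alone (the CD3 arrays). The 8 arrays were taken by the genotype and treatment their labels give, and no measured value was used to choose them. The cells came from spleen and lymph nodes of B6 mice, were sorted as naive CD4+ CD25- T cells, and were stimulated for 24 h in DMEM with fetal bovine serum. The other 8 arrays hold the same 2 stimuli in cells of Dec1 knock-out mice of the same strain; Dec1, whose gene is Bhlhe40, is a basic helix-loop-helix repressor of transcription. Both wild-type groups received anti-CD3 on latex beads, so what separates them is the anti-CD28 on the bead, and no array of unstimulated cells was analysed here. Sorting for a naive surface phenotype and absent CD25 enriches naive cells and depletes regulatory T cells, but such a population can still hold a few cells of other kinds. The labels do not say whether the 4 numbered replicates of a group came from separate mice, so the p-values below measure only the spread between these samples.

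A naive T cell needs a signal through its antigen receptor and another through CD28, the receptor for CD80 and CD86 on antigen-presenting cells. CD28 recruits phosphoinositide 3-kinase and adaptors of the NF-kB pathway, and costimulation is best known for raising IL-2 production, survival, nutrient uptake and entry into the cell cycle. Receptor signalling without costimulation can leave T cells anergic, a state in which ubiquitin ligases and diacylglycerol kinases restrain a later response.

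Every value below is the deposited log2 value of an array, with the 4 CD3 arrays and then the 4 CD3CD28 arrays given in the order of replicates 1 to 4. A difference is the CD3CD28 mean minus the CD3 mean on the log2 scale, with its standard error (SE). The p-value is that of limma, adjusted by Benjamini and Hochberg over all 16427 genes tested. A gene rose or fell where that adjusted p was under 0.05. The fit behind these values did not pair the arrays by replicate number. For named genes whose call changes with the number as a block, that result is given beside it. The array medians of the 8 arrays lay between 6.64 and 6.85, and the arrays of a group correlated with each other at 0.976 to 0.995 across genes against 0.937 to 0.973 between the groups. The first principal component, with 69.0% of the variance, separated the stimuli: the CD3 arrays lay at -28.72, -29.33, -25.25 and -36.87 and the CD3CD28 arrays at 37.82, 37.42, 20.62 and 24.31. On the second component replicates 1 and 2 of both stimuli were positive (10.26 and 4.2 under CD3, 15.98 and 9.13 under CD3CD28) and replicates 3 and 4 negative (-1.95 and -5.39, -1.92 and -30.3), with CD3CD28 replicate 4 the farthest out. The labels name no batch that would separate these numbers, so results that rest on either pair are given for each pair. Xist, the RNA that silences an X chromosome in female cells, read 10.95, 5.14, 5.67 and 5.09 under CD3 and 11.23, 5.62, 5.15 and 5.80 under CD3CD28, while the Y-linked gene Kdm5d read 6.01, 9.82, 10.12 and 10.09 and 6.11, 9.73, 9.70 and 10.04. Replicate 1 was thus high for Xist and low for Kdm5d under both stimuli, the pattern of female cells. The other replicates showed the opposite, the pattern of male cells, so replicate 1 came from other mice than they did.

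The T cell identity of the samples was clear on all 8 arrays: Cd3e, a chain of the T cell receptor complex, read 12.11, 12.04, 12.37 and 12.29 under CD3 and 11.47, 11.31, 11.80 and 11.26 under CD3CD28, and Cd4 read 11.10, 11.05, 11.61 and 11.62 and 10.92, 10.89, 11.38 and 11.03. Ncr1 and Klrb1c, which define natural killer (NK) cells, lay under the 25th percentile of their array on 4 of 4 arrays of each group. Over 10 T cell identity genes the mean level ranged from 11.4 to 11.66 under CD3 and from 10.98 to 11.33 under CD3CD28, with 6 lower and 1 higher (2 higher without CD3CD28 replicate 3). B cell markers were low and fell by a similar mean amount: their mean level over 13 genes ranged from 6.75 to 6.91 under CD3 and from 6.32 to 6.49 under CD3CD28, and 6 of the 13 fell. Markers of myeloid and dendritic cells went the same way, from a mean level of 6.71 to 6.83 over 20 genes to one of 6.32 to 6.43, with 7 lower and none higher (4 lower after median centring or without replicate 2 of either group, and 3 with replicates 3 and 4 alone). Cd8a, which CD4 T cells should lack, read 6.82, 6.96, 6.76 and 6.88 under CD3 and 7.63, 7.51, 7.52 and 7.66 under CD3CD28. The gene rose by 0.73 (SE 0.09, adjusted p = 1.08e-05). Cd8b1, the other CD8 chain, rose by 0.73 (SE 0.17, adjusted p = 0.00345). Of 8 CD8 T cell markers, among them granule and NK receptor genes, 5 rose and 3 fell, and their mean level ranged from 7.52 to 7.80 under CD3 and from 7.70 to 7.83 under CD3CD28. Foxp3, the factor that defines regulatory T cells, read 8.48, 8.36, 7.72 and 8.004 under CD3 and 8.21, 7.995, 9.06 and 8.26 under CD3CD28, above every array median, and its difference of 0.24 (SE 0.19, adjusted p = 0.4) did not pass. Of 12 regulatory T cell markers 3 rose and 2 fell (5 rose with the replicate number as a block, and 1 fell without CD3 replicate 3 or 4 or CD3CD28 replicate 1 or 2). Of 9 memory T cell markers 5 rose and none fell (1 fell with that block or without CD3 replicate 3), and their mean level ranged from 7.54 to 7.73 under CD3 and from 8.07 to 8.42 under CD3CD28. The part of these cell types in the differences below was not tested. In RNA of a whole culture, fewer cells of a type and less RNA per cell cannot be told apart, and this holds for every difference below.

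Adding anti-CD28 changed a large part of the measured transcriptome. Of 16427 genes tested, 2630 rose, which is 16% of them, and 2140 fell, which is 13%; together 4770 genes were called, 29% of those tested. The called changes were mostly small, with a median size of 0.555 on the log2 scale. At 2-fold or more 471 genes rose and 267 fell, at 4-fold or more 106 rose and 26 fell, and at 8-fold or more 16 rose and 2 fell. The 4 CD3 and 4 CD3CD28 values did not overlap for 4181 of the 4770 called genes and for 4997 of all 16427 tested (30.4%). Of the called genes, 4687 moved the same way in all 4 same-numbered pairs, which was counted among called genes only. Both counts of called genes follow largely from calling them on the same values. The balance of the 2 directions depended on the scaling: 55.1% of calls were higher as deposited and 69.3% (3241 higher, 1438 lower) after each array was centred on its median, which moved the median difference of all genes from -0.03 to 0.06. With replicates 3 and 4 alone 2650 genes were called, and 2514 of them were among the 4770. Blocking on the replicate number raised the count to 5800.

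Il2, the gene of the main T cell growth factor and the classical target of CD28 costimulation, showed the largest rise of all genes tested. It read 7.17, 6.95, 7.52 and 6.94 under CD3 and 11.73, 11.82, 10.44 and 10.67 under CD3CD28, a difference of 4.02 (SE 0.37, adjusted p = 4.86e-07), or 16.2-fold. Every CD3CD28 array lay above every CD3 array, and among the CD3CD28 arrays replicates 1 and 2 were above replicates 3 and 4. The difference was 4.72 in replicates 1 and 2 and 3.32 in replicates 3 and 4. The Il2 promoter holds the element through which CD28 signals were first mapped, and is shown for that reason: the 250 bases before the RefSeq start of Il2 on GRCm38.p6 lie at chr3:37125955-37126204 on the minus strand, with the CD28 response element GAAATTCC in capitals and its first base 162 bases before the start.

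Il2: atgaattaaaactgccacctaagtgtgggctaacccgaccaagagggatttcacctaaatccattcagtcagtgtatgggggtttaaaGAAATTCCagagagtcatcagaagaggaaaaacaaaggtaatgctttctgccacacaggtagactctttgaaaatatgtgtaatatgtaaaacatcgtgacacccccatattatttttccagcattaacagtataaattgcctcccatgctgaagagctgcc

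Among all 32851 promoter windows of this length in the RefSeq table, 0.831% hold that 8-base element on either strand, against 0.845% of the windows of genes that rose and 0.65% of those of genes that fell.

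Cytokine genes beside Il2 split into a small group that rose and a larger group that did not pass the test. Of 22 other cytokines and growth factors tested, 6 rose and 1 fell (2 with the replicate number as a block), with a median difference of 0.12 against -0.03 over all genes. Il3, a growth factor of haematopoietic progenitors, read 4.13, 4.46, 5.16 and 4.47 under CD3, at or under the 25th percentile of each array, and 9.89, 10.03, 6.80 and 6.36 under CD3CD28. It rose by 3.71 (SE 0.82, adjusted p = 0.00227), and its values with anti-CD28 fell into a high pair (replicates 1 and 2) and a lower pair (replicates 3 and 4). Lif, a cytokine of the gp130 family, read 6.89, 6.36, 6.63 and 6.32 and 9.32, 8.61, 9.63 and 9.0. This was a rise of 2.59 (SE 0.20, adjusted p = 7.52e-08); its 4 CD3CD28 values lay together, above every CD3 value. Penk, the precursor of the enkephalin peptides, rose by 1.39 (SE 0.27, adjusted p = 0.000818), and Ebi3, a subunit shared by IL-27 and IL-35, by 1.38 (SE 0.32, adjusted p = 0.00319). Il16, a chemoattractant for CD4 T cells, fell by 0.63 (SE 0.11, adjusted p = 0.000414).

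**Figure D1:**
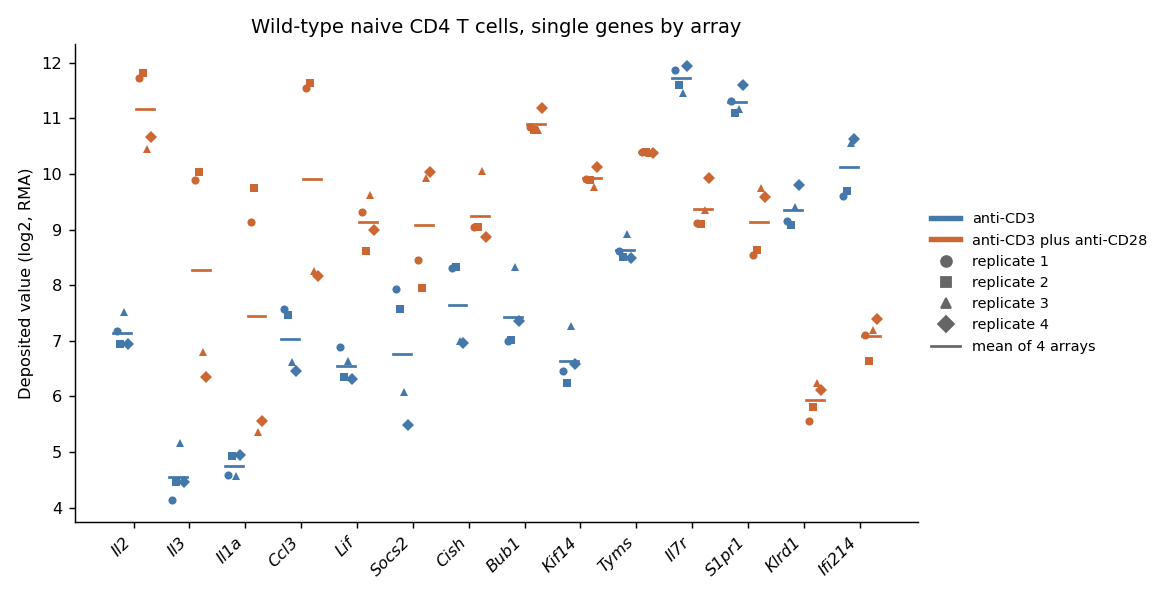
Deposited log2 values (vertical axis) of 14 genes on the 4 CD3 arrays (blue) and 4 CD3CD28 arrays (orange) of wild-type cells; symbols mark replicates 1 to 4 and short lines the group means. Il3, Il1a and Ccl3 are high in replicates 1 and 2 with anti-CD28, Socs2 is high in replicates 3 and 4, and Bub1, Kif14 and Tyms are alike in all 4 CD3CD28 arrays.

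The split between replicate pairs was wide in several cytokine and chemokine genes. Ccl3, a chemokine for monocytes and T cells, read 7.58, 7.46, 6.61 and 6.46 under CD3 and 11.55, 11.64, 8.26 and 8.17 under CD3CD28, a rise of 2.88 (SE 0.80, adjusted p = 0.0108). Its difference was 4.08 in replicates 1 and 2 and 1.68 in replicates 3 and 4. Il3 went the same way, with 5.66 in the first pair and 1.76 in the second. Il1a, an inflammatory cytokine, read 4.58, 4.92, 4.56 and 4.96 and 9.14, 9.75, 5.36 and 5.56: the difference of 2.69 (SE 0.96, adjusted p = 0.0443) was near background in the CD3 arrays, rested on replicates 1 and 2 (4.69 against 0.70), and no longer passed the test when either of those CD3CD28 arrays was left out (adjusted p = 0.151 without replicate 1 and 0.165 without replicate 2) or any one of the CD3 arrays (adjusted p from 0.0755 to 0.0862 over these 4). With trended robust moderation it did not pass either (adjusted p = 0.0981). Csf2, which encodes GM-CSF, did not pass, at 5.61, 5.87, 5.18 and 5.14 and 7.57, 7.82, 5.39 and 5.50, with 1.12 (SE 0.49, adjusted p = 0.101), but did with the replicate number as a block (adjusted p = 0.0187) and without CD3CD28 replicate 3 (0.0254) or 4 (0.0302). Its CD3CD28 values were high in replicates 1 and 2 and within the CD3 range in replicates 3 and 4. Ifng, the type 1 helper cytokine, rose by 0.69 (SE 0.21, adjusted p = 0.0205) with all 8 arrays but not without CD3CD28 replicate 1 (adjusted p = 0.0702), CD3 replicate 2 (0.068) or CD3 replicate 3 (0.0555). Tnf read 9.95, 9.93, 10.73 and 10.60 and 10.44, 10.35, 10.97 and 9.79 and its difference was 0.08 (SE 0.23, adjusted p = 0.837), with overlapping groups.

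Some feedback genes downstream of the IL-2 receptor rose, and Socs2 and Cish split the other way. Of 17 genes of the IL-2 axis tested, 7 rose and 3 fell. Socs2, an inhibitor of JAK-STAT signalling induced by STAT5 and named here after its values were seen, read 7.92, 7.57, 6.08 and 5.49 under CD3 and 8.45, 7.95, 9.93 and 10.03 under CD3CD28. The difference was a rise of 2.32 (SE 0.57, adjusted p = 0.00448). Replicates 3 and 4 started lower and ended higher than replicates 1 and 2, so that the difference was 4.20 in replicates 3 and 4 and 0.45 in replicates 1 and 2, where alone it did not pass (adjusted p = 0.0856). Cish, another STAT5-induced inhibitor, read 8.31, 8.33, 6.998 and 6.96 and 9.05, 9.04, 10.05 and 8.86, a rise of 1.60 (SE 0.30, adjusted p = 0.000498), and again the CD3 values of replicates 3 and 4 were the low ones. Their relatives Socs1 (0.16 (SE 0.08, adjusted p = 0.184)) and Socs3 (0.10 (SE 0.17, adjusted p = 0.723)) did not pass. Il2ra, the high-affinity subunit of the IL-2 receptor (CD25), rose by 0.92 (SE 0.19, adjusted p = 0.0014) from 11.42, 11.40, 10.89 and 10.59 to 11.74, 11.77, 12.22 and 12.26. Pim2, a survival kinase downstream of cytokine receptors, rose by 1.08 (SE 0.21, adjusted p = 0.000745). Il7r, the receptor of the homeostatic cytokine IL-7, fell by 2.35 (SE 0.21, adjusted p = 3.75e-07), the kinase Jak1 fell by 0.51 (SE 0.12, adjusted p = 0.00275) and Stat5b fell by 0.51 (SE 0.12, adjusted p = 0.00378); the call for Jak1 was lost with replicates 3 and 4 alone (adjusted p = 0.0518).

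**Figure D2:**
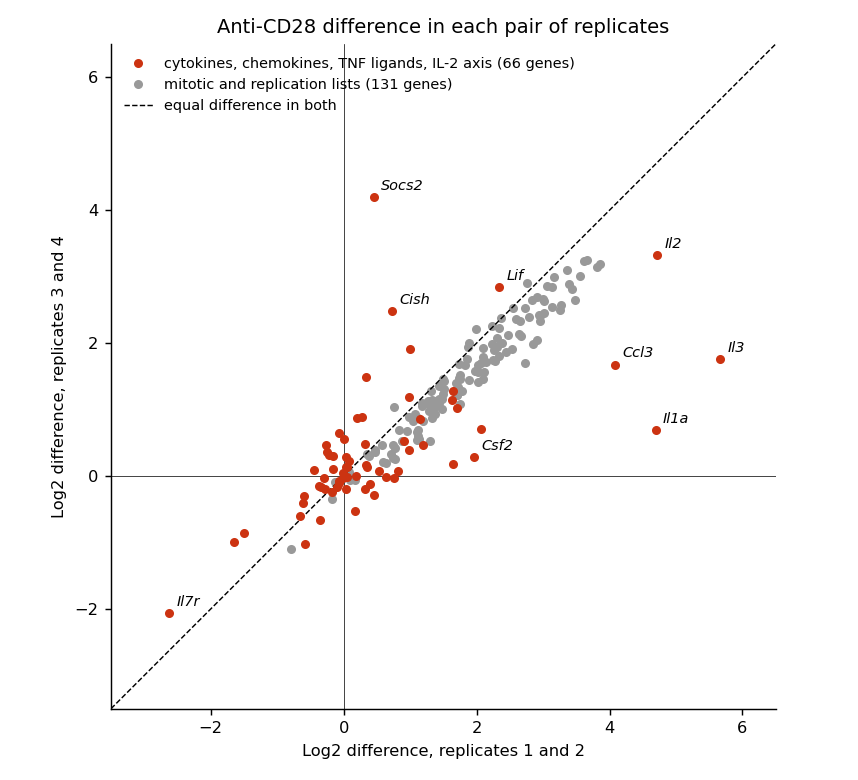
Log2 difference between the CD3CD28 and CD3 arrays in replicates 1 and 2 (horizontal axis) and in replicates 3 and 4 (vertical axis); each point is a gene, red for 66 genes of the cytokine, chemokine, TNF ligand and IL-2 axis lists, grey for 131 genes of 5 mitotic and replication lists, and the dashed line marks equal differences. The grey points follow the line slightly below it, while Il3, Il1a and Ccl3 lie far below it and Socs2 and Cish above it.

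In the mitotic and replication lists no single gene split between the pairs as widely as Il3, Il1a, Ccl3 or Socs2. The median difference of the mitotic kinases and cyclins was 2.56 in replicates 1 and 2 and 2.03 in replicates 3 and 4, and that of the origin licensing genes 1.23 and 0.94; over all genes tested the medians were -0.04 and -0.01. By list medians the cytokine side was not farther apart than the mitotic kinases and cyclins. The medians were 0.13 and 0.15 for the other cytokines and -0.06 and -0.02 for the chemokines. For the TNF ligands they were 0.43 and 0.18, and for the IL-2 axis 0.165 and 0.527. The wide splits above are thus those of single genes. What sets the 2 pairs apart was not tested.

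Members of the TNF superfamily changed on both the ligand and the receptor side. Among 14 ligands tested 5 rose (35.7%) and 2 fell (14.3%). Of the ligands 1 fell when any array but CD3 replicate 2 or CD3CD28 replicate 4 was left out. Among 16 receptors 3 rose (18.8%) and 6 fell (37.5%), where 16% of all genes tested rose and 13% fell. The shares of ligands that fell and of receptors that rose were near those of all genes. Tnfsf11, which encodes RANKL, read 9.27, 9.26, 8.69 and 8.67 and 10.91, 10.92, 9.83 and 10.08. Its level rose by 1.46 (SE 0.28, adjusted p = 0.000594). Tnfsf9, the ligand of 4-1BB, rose by 1.37 (SE 0.21, adjusted p = 9.99e-05), Lta, which encodes lymphotoxin alpha, by 1.45 (SE 0.21, adjusted p = 4.96e-05), and Tnfsf4, which encodes OX40 ligand and was named after its values were seen, by 1.00 (SE 0.29, adjusted p = 0.0154). Ltb, the partner of Lta in membrane lymphotoxin, moved the opposite way, from 10.45, 10.37, 10.32 and 10.45 to 8.76, 8.76, 9.72 and 9.05, and fell by 1.32 (SE 0.17, adjusted p = 1.50e-05). On the receptor side Tnfrsf26, a decoy-type receptor, read 9.91, 9.64, 9.88 and 10.33 and 7.54, 7.91, 8.28 and 8.04. The gene fell by 1.998 (SE 0.19, adjusted p = 6.63e-07). Cd27, a costimulatory receptor of naive cells, fell by 1.62 (SE 0.15, adjusted p = 5.71e-07), with each CD3CD28 array below every CD3 array. Tnfrsf9, the receptor 4-1BB, fell by 0.94 (SE 0.18, adjusted p = 0.000674), a call lost with replicates 3 and 4 alone (adjusted p = 0.0821).

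In the CD28 family and among coinhibitory receptors, 5 of 23 genes rose (21.7%) and 5 fell (21.7%), with a median of -0.05. These shares are not far from the 16% and 13% of all genes tested. Cd28 itself read 11.88, 11.81, 12.07 and 12.08 under CD3 and 11.35, 11.33, 11.73 and 11.98 under CD3CD28 and did not pass the test, at -0.36 (SE 0.16, adjusted p = 0.0941). It was lower in all 4 same-numbered pairs and passed with the replicate number as a block (adjusted p = 0.0017). Icos, a related costimulatory receptor, did not pass either, at 0.40 (SE 0.21, adjusted p = 0.173), but did with that block (adjusted p = 0.0131). Ctla4, the inhibitory receptor for the same ligands, rose by 0.63 (SE 0.22, adjusted p = 0.0376) with all arrays but not after quantile normalization (adjusted p = 0.0879) or with replicates 1 and 2 alone (0.217); when each array was left out in turn its adjusted p ranged from 0.0325 to 0.103, and it passed without CD3 replicate 1 or CD3CD28 replicate 2 but not without any other wild-type array. Cd226, an activating receptor for nectin-family ligands, read 9.03, 9.18, 9.23 and 9.20 and 10.59, 10.86, 10.08 and 10.42. It rose by 1.32 (SE 0.23, adjusted p = 0.000244). Cd24a, a surface glycoprotein, rose by 1.93 (SE 0.26, adjusted p = 3.19e-05), and Cd44, the hyaluronan receptor that marks activated and memory cells, by 1.39 (SE 0.27, adjusted p = 0.000798). Slamf1 fell by 0.67 (SE 0.12, adjusted p = 0.000501) and Cd160 fell by 0.49 (SE 0.10, adjusted p = 0.00159). Leaving out CD3CD28 replicate 1 or CD3 replicate 2 or 4 lowered the number of members that rose from 5 to 3, and leaving out CD3 replicate 3 or 4 lowered the number that fell from 5 to 3, while 9 fell with the replicate number as a block. The activation marker Cd69 did not pass the test, at 0.19 (SE 0.19, adjusted p = 0.507), with 10.72, 10.63, 10.60 and 10.47 under CD3 and 11.08, 11.04, 10.16 and 10.90 under CD3CD28.

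Genes of cytotoxic cells moved in both directions, granule genes among both. Gzmb, which encodes granzyme B, read 7.74, 7.36, 6.43 and 5.33 under CD3 and 9.81, 9.72, 8.15 and 8.38 under CD3CD28. The gene rose by 2.30 (SE 0.48, adjusted p = 0.00141). Serpinb9, an inhibitor of granzyme B that protects the cell that makes it, read 6.02, 6.27, 6.16 and 6.23 and 9.32, 9.19, 6.99 and 7.52. This was a rise of 2.09 (SE 0.49, adjusted p = 0.00364), and the related Serpinb6b rose by 2.57 (SE 0.38, adjusted p = 6.18e-05). For both serpins the CD3CD28 values of replicates 1 and 2 were the higher pair. Klrd1, which encodes the NK receptor subunit CD94, had the largest fall of all genes tested, from 9.15, 9.09, 9.40 and 9.79 to 5.56, 5.81, 6.25 and 6.11, a difference of -3.43 (SE 0.25, adjusted p = 4.69e-08) or 10.8-fold lower. Cd7, a surface protein of T and NK cells, fell by 1.75 (SE 0.22, adjusted p = 1.64e-05). Granule genes also fell: Ctsw, a cathepsin of cytotoxic cells, fell by 1.08 (SE 0.21, adjusted p = 0.000749), though not with replicates 3 and 4 alone (adjusted p = 0.053), and Srgn, the granule proteoglycan, fell by 0.48 (SE 0.11, adjusted p = 0.00364). Prf1, which encodes perforin, fell by 0.27 (SE 0.08, adjusted p = 0.0193), a call lost after quantile normalization (adjusted p = 0.146), after median centring (0.147), without CD3 replicate 4 (0.0725) and with replicates 1 and 2 (0.092) or 3 and 4 alone (0.192). Of 16 genes in this list 5 rose and 8 fell. The mean level of 5 NK cell markers ranged from 7.31 to 7.50 under CD3 and from 6.41 to 6.81 under CD3CD28. That mean rests largely on Klrd1, which is among the 5. Their differences ran from -3.426, that of Klrd1, to 0.623, with a median of -0.269. Another 5 listed NK markers were too dim to test. The defining markers Ncr1 and Klrb1c stayed under the 25th percentile on all 8 arrays. The part of rare NK-like or CD8 T cells in these differences was not tested. The number that rose was 3 without CD3 replicate 4.

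Genes of mitosis rose more than any other list examined, judged by the list medians. Of 24 mitotic kinases and cyclins 22 rose, of 15 mitotic kinesins 14, and of 39 genes of the kinetochore, condensin and spindle 36, with medians of 2.26, 2.19 and 2.19. Bub1, a checkpoint kinase of the kinetochore, read 6.99, 7.02, 8.32 and 7.36 under CD3 and 10.85, 10.80, 10.79 and 11.19 under CD3CD28, a rise of 3.48 (SE 0.35, adjusted p = 1.22e-06) or 11.2-fold. Kif14, a kinesin of cytokinesis, read 6.46, 6.24, 7.27 and 6.59 and 9.92, 9.89, 9.76 and 10.12. The difference was a rise of 3.28 (SE 0.17, adjusted p = 6.87e-10). In both genes CD3 replicate 3 was the highest of the CD3 arrays, and it lay well under the lowest CD3CD28 array. Knl1, a kinetochore scaffold, rose by 3.42 (SE 0.27, adjusted p = 8.64e-08), Tpx2, an activator of Aurora A, by 3.23 (SE 0.20, adjusted p = 5.18e-09), and Ttk, the checkpoint kinase MPS1, by 3.14 (SE 0.25, adjusted p = 9.87e-08). Cdk1, the main mitotic kinase, rose by 2.68 (SE 0.19, adjusted p = 2.73e-08) and Plk1 by 2.30 (SE 0.17, adjusted p = 5.16e-08). Against this direction Cdc25b, a phosphatase that activates CDKs, fell from 8.80, 8.53, 8.94 and 9.30 to 7.87, 7.87, 8.19 and 7.86, a difference of -0.95 (SE 0.17, adjusted p = 0.000322). Among the kinetochore genes the centromeric histone Cenpa (0.05 (SE 0.14, adjusted p = 0.833)), Cenpt (0.07 (SE 0.13, adjusted p = 0.728)) and the condensin subunit Smc4 (-0.11 (SE 0.14, adjusted p = 0.611)) did not pass the test.

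DNA replication and repair rose alongside. All 24 origin licensing genes tested rose, by 0.437 to 2.12 with a median of 1.11; 29 of 31 genes of the replication fork and dNTP supply rose, with a median of 1.23; and 22 of 24 genes of homologous recombination, the Fanconi pathway and the checkpoint rose, with a median of 1.61. Cdc6, a licensing factor, read 7.91, 7.64, 8.60 and 7.84 and 9.92, 9.87, 9.86 and 9.71. Its level rose by 1.84 (SE 0.20, adjusted p = 2.87e-06). Rrm2, the regulatory subunit of ribonucleotide reductase, read 8.69, 8.46, 9.77 and 8.86 and 11.47, 11.50, 11.46 and 11.26. It rose by 2.48 (SE 0.34, adjusted p = 2.98e-05). Tyms, thymidylate synthase, read 8.62, 8.51, 8.92 and 8.48 under CD3 and 10.39, 10.39, 10.38 and 10.38 under CD3CD28, a rise of 1.75 (SE 0.17, adjusted p = 6.82e-07), with the CD3CD28 arrays nearly equal. In the repair list Fancd2, the central protein of the Fanconi pathway, rose by 2.49 (SE 0.14, adjusted p = 2.13e-09), the exonuclease Exo1 by 2.58 (SE 0.24, adjusted p = 4.98e-07), the helicase Brip1 by 2.30 (SE 0.18, adjusted p = 1.31e-07) and Brca1 by 1.996 (SE 0.19, adjusted p = 8.77e-07). The 2 fork genes that did not pass were subunits of DNA polymerase delta: Pold1 at 8.58, 8.66, 8.81 and 8.52 and 9.47, 9.30, 9.46 and 8.39, and Pold2 at 9.83, 9.73, 9.92 and 9.45 and 11.23, 10.95, 10.93 and 9.51. In both, CD3CD28 replicate 4 lay within or below the CD3 range while the other CD3CD28 arrays lay above it, and without that array both passed (adjusted p = 0.0144 for Pold1 and 0.00666 for Pold2). Both also passed with the replicate number as a block (adjusted p = 0.036 and 0.00526).

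Regulators of the G1 phase and of E2F changed in both directions. Of 19 E2F factors and pocket proteins 12 rose (63.2%) and 2 fell (10.5%). Of 21 G1 cyclins, CDKs and CDK inhibitors 8 rose (38.1%) and 3 fell (14.3%). The shares that fell were near the 13% of all genes tested. E2f8, a repressing E2F of S phase, read 6.74, 6.81, 8.26 and 7.41 and 10.54, 10.45, 10.29 and 10.34. The gene rose by 3.10 (SE 0.29, adjusted p = 5.32e-07); E2f7, its relative, rose by 0.99 (SE 0.09, adjusted p = 5.37e-07). Ccne2, a cyclin of S phase entry, rose by 2.13 (SE 0.25, adjusted p = 7.56e-06), Ccne1 by 1.45 (SE 0.15, adjusted p = 1.67e-06), and Skp2, which marks CDK inhibitors for degradation, by 1.31 (SE 0.13, adjusted p = 1.20e-06). Cdkn1b, which encodes the inhibitor p27, read 9.81, 9.71, 10.21 and 10.42 under CD3 and 8.41, 8.37, 8.67 and 8.39 under CD3CD28. Its level fell by 1.57 (SE 0.20, adjusted p = 1.46e-05). Rbl2, a pocket protein of resting cells, fell by 0.79 (SE 0.17, adjusted p = 0.00208), Ccng2 fell by 1.34 (SE 0.27, adjusted p = 0.00115) and Myb fell by 1.39 (SE 0.34, adjusted p = 0.00467); for these 3 genes and Cdkn1b no CD3CD28 array reached the CD3 range. Chromatin genes rose in 19 of 28 cases and fell in 4, and the pair of Polycomb methyltransferases moved apart: Ezh2 went from 10.94, 10.85, 10.86 and 10.56 to 12.24, 12.28, 12.12 and 12.35, a rise of 1.44 (SE 0.11, adjusted p = 8.88e-08), and Ezh1 from 9.41, 9.15, 9.48 and 9.59 to 8.28, 8.25, 8.45 and 8.37, a difference of -1.07 (SE 0.12, adjusted p = 5.76e-06). Of 19 core histone genes 13 rose and 1 fell (none fell without CD3 replicate 2, 3 or 4 or CD3CD28 replicate 1 or 2, and 2 fell without CD3CD28 replicate 3 or with the replicate number as a block). H2ac4, a replication-dependent H2A gene, read 4.86, 4.46, 4.98 and 4.91 under CD3, near background, and 7.89, 7.88, 8.62 and 6.25 under CD3CD28, a rise of 2.86 (SE 0.34, adjusted p = 8.87e-06). Histone genes of a cluster are near-identical, so their probes may cross-react and the split between members is uncertain.

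Promoters of these genes are shown because E2F and the DREAM complex, the main regulators of cell cycle genes, bind short elements close to the start: the E2F site, searched as TTTNNCGC, and the cell cycle homology region (CHR), searched as TTTGAA. Each was sought on both strands in the 250 bases before the RefSeq start, and the matched letters are in capitals. N stands for any base, so the E2F pattern is a loose one and a match is not a proven E2F site. H2ac4 (chr13:23750838-23751087, plus strand, where the site is read from the opposite strand with its first base 153 bases before the start) had the largest rise among the genes considered for printing that hold the E2F site, and Brip1 (chr11:86201194-86201443, minus strand, 189 bases before) the largest in the replication and repair lists. For the CHR the gene of largest rise was Il2 itself, whose window above holds 1 match away from the capitals; Kif14 (chr1:136467598-136467847, plus strand, 228 bases before) had the largest rise with a match in the mitotic lists, a choice made after the values were seen.

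H2ac4: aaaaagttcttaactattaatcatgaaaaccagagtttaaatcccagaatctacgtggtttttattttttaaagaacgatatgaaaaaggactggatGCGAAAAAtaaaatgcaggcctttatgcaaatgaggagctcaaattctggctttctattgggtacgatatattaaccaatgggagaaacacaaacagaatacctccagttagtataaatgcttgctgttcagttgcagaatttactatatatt

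Brip1: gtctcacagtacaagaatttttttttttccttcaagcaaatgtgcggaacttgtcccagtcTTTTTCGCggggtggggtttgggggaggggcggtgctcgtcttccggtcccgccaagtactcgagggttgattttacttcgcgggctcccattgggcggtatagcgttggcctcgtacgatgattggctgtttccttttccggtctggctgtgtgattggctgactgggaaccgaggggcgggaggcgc

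Kif14: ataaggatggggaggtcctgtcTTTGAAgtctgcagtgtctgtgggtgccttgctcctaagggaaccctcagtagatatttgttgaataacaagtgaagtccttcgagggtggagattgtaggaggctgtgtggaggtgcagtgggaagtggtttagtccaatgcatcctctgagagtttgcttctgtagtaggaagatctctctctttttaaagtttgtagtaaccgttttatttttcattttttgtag

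The E2F site was present in 4.28% of all windows of the table, 6.02% of those of tested genes, 9.79% of those of genes that rose and 4.9% of those of genes that fell; in the 3 replication and repair lists it was in 14 of 79 windows (17.7%), and in the 3 mitotic lists in 14.7%. The CHR was in 11.3% of the windows of tested genes and in 25 of 68 windows of the 3 mitotic lists (36.8%), against 8.86% in the replication and repair lists. The CCAAT box, bound by NF-Y, was in 34.1% of the windows of tested genes in 72.1% of the mitotic ones and in 51.9% of the replication and repair ones. Windows of genes with more than 1 start are counted once per start, windows of different genes may overlap, and these shares describe letters in the sequence with no test of binding.

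**Figure D3:**
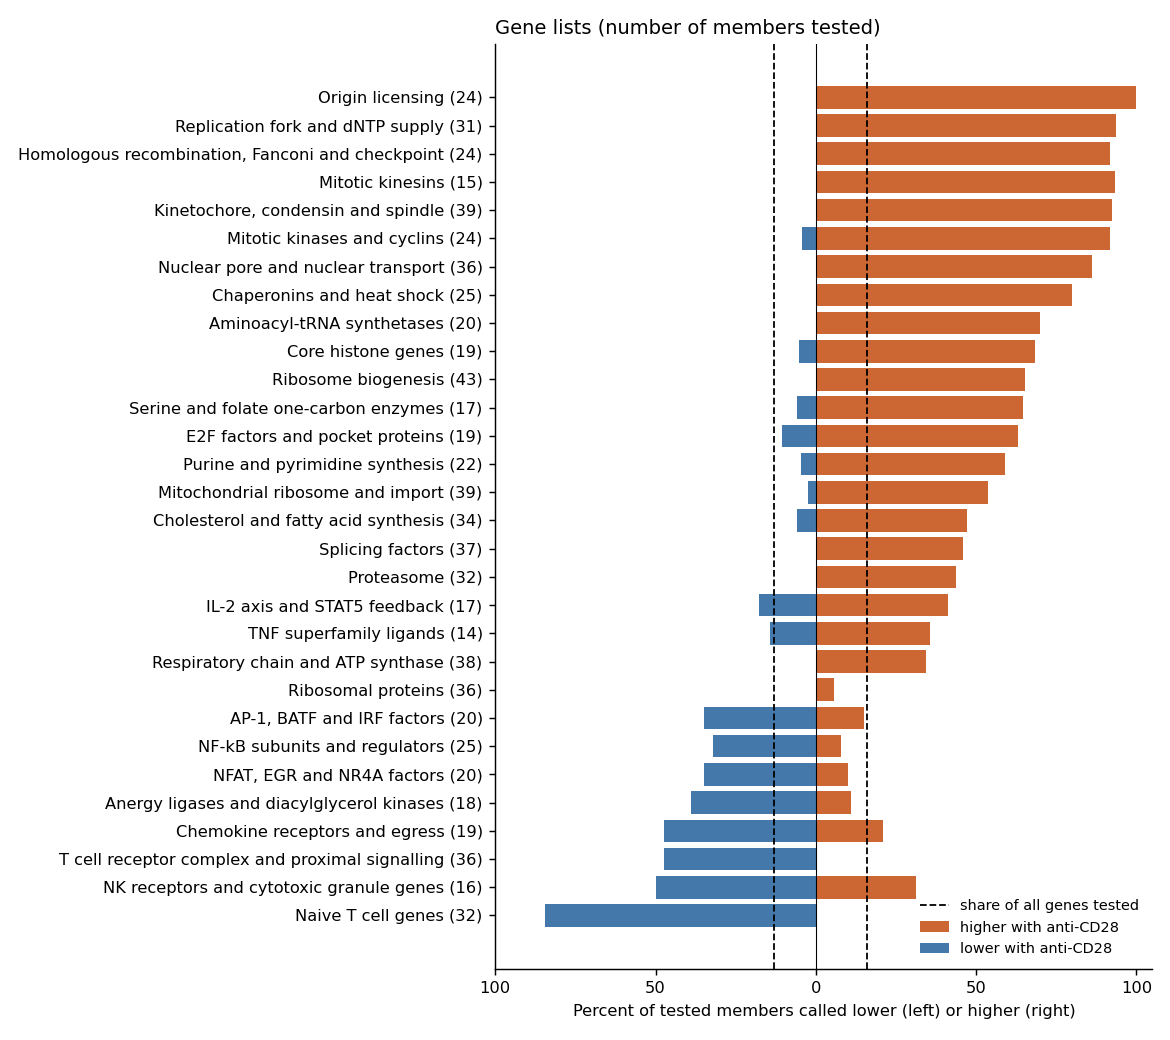
Share of tested members of 30 gene lists that were called higher (orange, to the right) or lower (blue, to the left) with anti-CD28, in percent; the number of members tested is in brackets and the dashed lines mark the shares over all genes tested, 16% higher and 13% lower. The replication, repair and mitotic lists have the largest shares higher, with 24 of 24 origin licensing genes, and the naive T cell list, with 27 of 32 members lower, has the largest share lower.

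Growth and biosynthesis genes rose by smaller amounts. Of 36 genes of the nuclear pore and nuclear transport 31 rose and none fell, with a median of 0.75; Ipo7, an import receptor for ribosomal proteins and histones, read 10.54, 10.39, 10.51 and 10.38 and 11.52, 11.45, 11.29 and 11.56. This was a rise of 1.00 (SE 0.08, adjusted p = 1.94e-07), and Lmnb1, which encodes lamin B1, rose by 1.38 (SE 0.12, adjusted p = 2.38e-07). Of 25 chaperonin and heat shock genes 20 rose; the chaperonin subunits Tcp1 and Cct6a rose by 0.73 (SE 0.10, adjusted p = 3.49e-05) and 0.77 (SE 0.09, adjusted p = 9.21e-06). Ribosome biogenesis genes rose in 28 of 43 cases, with a median of 0.59, among them Dkc1, the pseudouridine synthase of ribosomal RNA, by 0.75 (SE 0.08, adjusted p = 3.64e-06), and Wdr75, a factor of the small subunit processome, by 0.73 (SE 0.08, adjusted p = 5.34e-06). The 36 ribosomal protein genes themselves had a median of -0.07, and 2 of them rose, but none without CD3CD28 replicate 1, CD3CD28 replicate 2 or CD3 replicate 4, and 1 without CD3 replicate 2. Leaving out CD3CD28 replicate 3 gave 2 that fell. Their median was 0.02 after centring each array on its median. Of 20 aminoacyl-tRNA synthetases 14 rose, by 0.595 for Rars and 0.657 for Gars. Myc, a driver of these programmes, rose by 0.62 (SE 0.13, adjusted p = 0.00146) from 11.40, 11.41, 11.24 and 10.95 to 11.92, 11.96, 11.78 and 11.82.

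Metabolic lists rose in part. Among the serine and folate one-carbon enzymes 11 of 17 rose and 1 fell; Mthfd2, the mitochondrial folate enzyme, read 10.13, 10.08, 10.05 and 9.68 and 11.47, 11.38, 11.05 and 11.22. The difference was a rise of 1.29 (SE 0.12, adjusted p = 3.78e-07). Purine and pyrimidine synthesis had 13 of 22 genes higher and 1 lower (none lower without CD3CD28 replicate 1 or 2), with Prps1, which makes the ribose phosphate donor, up by 1.08 (SE 0.13, adjusted p = 8.42e-06) and Ppat, the first committed enzyme of purine synthesis, by 0.71 (SE 0.08, adjusted p = 7.19e-06). In cholesterol and fatty acid synthesis 16 of 34 genes rose and 2 fell (4 with the replicate number as a block, and 1 without CD3 replicate 4 or CD3CD28 replicate 1, 2 or 4). Scd2, a fatty acid desaturase, read 7.01, 6.77, 6.94 and 6.66 and 8.93, 8.85, 8.88 and 8.12. Its level rose by 1.85 (SE 0.18, adjusted p = 7.16e-07), and Elovl6, an elongase, by 1.21 (SE 0.14, adjusted p = 4.25e-06); Mylip, the ligase that degrades the LDL receptor, fell by 0.74 (SE 0.12, adjusted p = 0.000108). With replicates 3 and 4 alone 9 of the 34 rose.

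Glucose transport and glycolysis had 6 of 26 genes higher (23.1%) and 4 lower (15.4%), not far from the 16% and 13% of all genes tested. The pairs of replicates differed. With replicates 1 and 2 alone 14 were higher and 2 lower, with a list median of 0.40. With replicates 3 and 4 alone 3 were higher and 4 lower, with a list median of -0.05. Hk2, an inducible hexokinase, read 8.15, 7.75, 7.71 and 7.20 and 10.03, 10.01, 9.19 and 8.91. It rose by 1.83 (SE 0.31, adjusted p = 0.000233). Slc2a1, the glucose transporter GLUT1, did not pass the test: it read 10.18, 9.87, 9.997 and 9.69 and 10.76, 10.39, 10.10 and 9.06, with CD3CD28 replicate 4 below every CD3 array, and its difference was 0.14 (SE 0.37, adjusted p = 0.8289). Pdk2, a kinase that inhibits pyruvate dehydrogenase, fell by 1.07 (SE 0.13, adjusted p = 7.90e-06). Slc16a1, a lactate transporter, rose by 1.11 (SE 0.15, adjusted p = 2.89e-05). Slc43a3, a purine base transporter kept here in the list of amino acid transporters, rose by 1.93 (SE 0.18, adjusted p = 7.25e-07), and Tfrc, the transferrin receptor through which cells take up iron, by 1.30 (SE 0.15, adjusted p = 3.99e-06).

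Part of the mitochondrial, proteasome and splicing genes rose. In the respiratory chain and ATP synthase 13 of 38 genes rose, but 7 after a further quantile normalization, 6 without CD3 replicate 4 and 8 without CD3 replicate 2 or CD3CD28 replicate 3. Of 39 genes of the mitochondrial ribosome and import 21 rose and 1 fell (none fell without CD3 replicate 1, 3 or 4 or CD3CD28 replicate 1 or 4), of 32 proteasome genes 14 rose, and of 37 splicing factors 17 rose. With replicates 3 and 4 alone, where fewer genes were called in all, 1, 9, 3 and 4 rose in these 4 lists. The list medians were 0.19, 0.32, 0.20 and 0.20 in that pair, and 0.32, 0.63, 0.31 and 0.35 in replicates 1 and 2. Tomm70a, an import receptor of the outer mitochondrial membrane, read 10.28, 10.30, 10.25 and 10.27 and 10.90, 10.98, 10.79 and 11.02. The gene rose by 0.65 (SE 0.08, adjusted p = 1.87e-05). Psmd1, a subunit of the proteasome cap, rose by 0.73 (SE 0.11, adjusted p = 8.79e-05), and Hnrnpll, a splicing factor that controls CD45 exon use in T cells, by 0.95 (SE 0.12, adjusted p = 2.14e-05). Of 31 genes of fatty acid oxidation and the lysosome 12 fell, 2 rose and 17 did not pass, with a median of -0.11 (-0.02 after median centring). Cpt1a, the gate of fatty acid entry into mitochondria, fell by 0.96 (SE 0.18, adjusted p = 0.000703) and the lysosomal protease Ctsa fell by 1.01 (SE 0.17, adjusted p = 0.000279).

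Naive T cell genes fell together. Of 32 genes in that list 27 fell and none rose, with a median of -0.82 against -0.03 for all genes tested. S1pr1, the receptor that lets lymphocytes leave lymph nodes, read 11.32, 11.10, 11.17 and 11.59 under CD3 and 8.54, 8.63, 9.75 and 9.59 under CD3CD28. It fell by 2.17 (SE 0.32, adjusted p = 5.72e-05). Klf2, the factor that drives S1pr1, read 8.81, 8.62, 8.63 and 8.54 and 6.97, 7.83, 7.77 and 7.46. The gene fell by 1.15 (SE 0.14, adjusted p = 1.47e-05). All CD3CD28 values of both genes lay below all CD3 values, and those of S1pr1 were lowest in replicates 1 and 2. Ypel3 fell by 2.02 (SE 0.18, adjusted p = 4.76e-07), the phosphatase Acp5 fell by 1.71 (SE 0.19, adjusted p = 3.74e-06), the antiproliferative gene Btg2 fell by 1.35 (SE 0.24, adjusted p = 0.000389) and the T cell factor Lef1 fell by 0.66 (SE 0.09, adjusted p = 2.05e-05). Ccr7, the lymph node homing receptor, fell by 0.38 (SE 0.13, adjusted p = 0.0342) with all arrays, but the fall did not pass after median centring (adjusted p = 0.165) or with replicates 3 and 4 alone (0.185), and with each array left out in turn its adjusted p ranged from 0.0146 to 0.111, passing without CD3CD28 replicate 2 or 3 but not without any other wild-type array. In the wider list of chemokine receptors and egress genes 4 of 19 rose and 9 fell: S1pr4 fell by 1.45 (SE 0.14, adjusted p = 8.99e-07) and Cxcr4 fell by 1.34 (SE 0.26, adjusted p = 0.000652), whereas Ccr8 rose by 1.97 (SE 0.34, adjusted p = 0.000286).

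Brakes on phosphoinositide 3-kinase and mTOR signalling were among the genes that fell. In that list of 31 genes 8 fell and 1 rose (13 and 3 with the replicate number as a block, and 2 rose without CD3CD28 replicate 4). Txnip, an inhibitor of glucose uptake that FOXO factors and glucose control, read 11.97, 11.74, 11.71 and 11.99 and 9.73, 9.86, 9.91 and 9.72. Its level fell by 2.05 (SE 0.10, adjusted p = 5.97e-10). Pik3ip1, an inhibitor of the kinase itself, fell by 1.57 (SE 0.15, adjusted p = 7.00e-07), Castor2, a sensor that holds back mTORC1, fell by 1.45 (SE 0.18, adjusted p = 1.15e-05), and Sesn1, another inhibitor of mTORC1, fell by 1.26 (SE 0.14, adjusted p = 3.19e-06). Foxo1, the transcription factor that AKT removes from the nucleus, fell by 0.40 (SE 0.12, adjusted p = 0.0195) with all arrays; it did not pass with replicates 3 and 4 alone (adjusted p = 0.151) or without CD3CD28 replicate 1 (0.0723), CD3CD28 replicate 2 (0.0766) or CD3 replicate 4 (0.0676).

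Genes of the T cell receptor pathway were lower with anti-CD28. Of 36 genes of the receptor complex and proximal signalling 17 fell and none rose (2 rose after median centring, and 1 with the replicate number as a block or without CD3CD28 replicate 3), with a median of -0.43; 10 fell with replicates 3 and 4 alone. Cd3d, a signalling chain of the receptor, read 11.91, 11.83, 12.09 and 12.17 and 10.69, 10.71, 11.37 and 10.98. It fell by 1.06 (SE 0.19, adjusted p = 0.000338). Lat, the adaptor that assembles the signalling complex, fell by 0.78 (SE 0.13, adjusted p = 0.000185), the phosphatase Ptpn22 fell by 1.28 (SE 0.12, adjusted p = 6.63e-07) and the TEC kinase Txk fell by 1.07 (SE 0.25, adjusted p = 0.00337).

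Anergy-linked ligases and kinases fell in 7 of 18 cases and rose in 2. Cblb, a ubiquitin ligase that sets the need for costimulation, read 11.48, 11.31, 11.70 and 11.69 under CD3 and 10.56, 10.35, 10.86 and 10.70 under CD3CD28. The gene fell by 0.93 (SE 0.13, adjusted p = 3.38e-05). Nt5e, the ectoenzyme CD73 of anergic and regulatory cells, read 9.09, 8.93, 9.29 and 9.19 and 6.91, 6.73, 7.83 and 7.71. Its level fell by 1.83 (SE 0.28, adjusted p = 0.000103). Each CD3CD28 array of both genes lay below each CD3 array. Dgka, a kinase that removes diacylglycerol, fell by 1.13 (SE 0.21, adjusted p = 0.000573), and Peli1, a ubiquitin ligase of REL proteins, fell by 1.10 (SE 0.13, adjusted p = 9.65e-06). Dgkz, a relative of Dgka, fell by 1.03 (SE 0.16, adjusted p = 0.00011) on its brighter probe, while its other probe gave -0.01 and did not pass.

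Transcription factors that the antigen receptor induces moved in both directions, and their counts depended on the scaling. Of 20 NFAT, EGR and NR4A factors 7 fell and 2 rose, and of 20 AP-1, BATF and IRF factors 7 fell and 3 rose; after median centring 4 fell and 3 rose in the first list and 3 fell and 5 rose in the second, and 4 fell in the first without CD3CD28 replicate 2 and in the second without CD3CD28 replicate 1 or CD3 replicate 3. In the second list 5 rose with the replicate number as a block or without CD3CD28 replicate 4. As deposited, 10% of the first list rose and 35% fell, and 15% of the second rose and 35% fell. Over all genes tested 16% rose and 13% fell, so neither list rose more often than genes at large. Egr2, an early response factor linked to anergy, read 11.52, 11.37, 11.99 and 11.92 and 10.40, 10.28, 11.15 and 10.56. It fell by 1.10 (SE 0.18, adjusted p = 0.000163); Egr1 fell by 0.96 (SE 0.19, adjusted p = 0.000821) and Nfatc1 fell by 0.80 (SE 0.16, adjusted p = 0.000869). Irf8 moved the other way, from 7.54, 7.56, 7.12 and 7.38 to 10.02, 9.22, 9.51 and 8.30, a rise of 1.86 (SE 0.28, adjusted p = 7.52e-05). In the NF-kB list 8 of 25 genes fell and 2 rose: Rel, the subunit through which CD28 acts on Il2, read 11.08, 11.02, 10.99 and 10.86 and 11.56, 11.68, 11.33 and 11.65. This was a rise of 0.57 (SE 0.09, adjusted p = 7.75e-05), while the kinase Ikbke fell by 1.31 (SE 0.13, adjusted p = 1.38e-06) and Traf1 fell by 0.73 (SE 0.15, adjusted p = 0.00126). Spry1, a feedback inhibitor of ERK signalling, fell from 9.05, 8.81, 9.29 and 8.98 to 7.91, 7.61, 8.0 and 7.82, a difference of -1.20 (SE 0.11, adjusted p = 4.55e-07).

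Single factors of helper lineages and of survival changed. Among 33 helper lineage factors 8 rose (24.2%) and 8 fell (24.2%), against 16% and 13% of all genes tested. Bhlhe40, the gene deleted in the knock-out arrays, read 8.02, 7.63, 7.59 and 7.0 under CD3 and 10.07, 10.03, 9.38 and 8.55 under CD3CD28. The difference was a rise of 1.95 (SE 0.27, adjusted p = 4.06e-05), with replicate 4 the lowest of both groups. Bcl6, the repressor of follicular helper cells, fell by 1.89 (SE 0.17, adjusted p = 4.44e-07) and Ikzf3, which encodes Aiolos, fell by 1.46 (SE 0.18, adjusted p = 9.02e-06). In the BCL2 family 3 of 18 genes rose (16.7%) and 2 fell (11.1%), near the shares of all genes tested, and 1 fell without CD3 replicate 1, 3 or 4 or CD3CD28 replicate 1 or 2. Bcl2l1, which encodes the survival protein BCL-XL, read 8.65, 8.59, 8.10 and 7.90 and 10.64, 10.45, 9.95 and 9.33. Its level rose by 1.78 (SE 0.32, adjusted p = 0.00035), Birc5, which encodes survivin and serves in mitosis too, rose by 2.55 (SE 0.30, adjusted p = 8.20e-06), and Bcl2l11, the killer protein BIM, fell by 1.16 (SE 0.10, adjusted p = 2.32e-07). Mxd4, a MAX partner that opposes MYC, fell by 0.77 (SE 0.07, adjusted p = 3.78e-07), and the TGF-beta receptor gene Tgfbr2 fell by 0.91 (SE 0.12, adjusted p = 1.51e-05). Tob1, an antiproliferative adaptor of mRNA decay, fell by 1.19 (SE 0.14, adjusted p = 5.75e-06), and Dis3, the exosome nuclease, rose by 1.22 (SE 0.10, adjusted p = 1.48e-07). Itgb1, the beta 1 integrin of activated cells, rose by 1.13 (SE 0.12, adjusted p = 2.26e-06) and Itgb7, its gut-homing relative, fell by 1.14 (SE 0.17, adjusted p = 7.94e-05).

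Of the 20 largest falls, 4 came from a single gene family. Ifi214, Ifi209, Ifi206 and Ifi208 belong to the PYHIN family, clustered interferon-inducible genes whose best known members sense DNA; the family was singled out after its values were seen. Ifi214 read 9.61, 9.70, 10.55 and 10.63 under CD3 and 7.11, 6.63, 7.19 and 7.40 under CD3CD28. The gene fell by 3.04 (SE 0.34, adjusted p = 3.73e-06). Ifi209 read 10.86, 10.79, 11.70 and 11.88 and 8.30, 8.27, 9.09 and 9.34, a difference of -2.56 (SE 0.34, adjusted p = 2.88e-05). In each the CD3 values of replicates 3 and 4 were the higher pair, and no CD3CD28 array reached the CD3 range. Ifi206 fell by 2.33 (SE 0.22, adjusted p = 6.25e-07), Ifi208 fell by 2.27 (SE 0.23, adjusted p = 1.17e-06), Ifi213 fell by 1.64 (SE 0.19, adjusted p = 4.98e-06) and Ifi203 fell by 0.87 (SE 0.23, adjusted p = 0.00823). Aim2, the sensor of cytosolic DNA in the family, did not pass, at 0.22 (SE 0.17, adjusted p = 0.384), nor did Ifi207, at 0.23 (SE 0.12, adjusted p = 0.189). These genes are close paralogs, so probes may read more than 1 of them and the split between members is uncertain. Of 28 interferon-induced genes tested 7 fell and 3 rose, with 12 lower and 1 higher in replicates 1 and 2 alone, 4 and 4 in replicates 3 and 4 alone, and none higher without CD3CD28 replicate 1 or CD3 replicate 2, 3 or 4.

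Other large falls were in single genes. Tcp11l2 read 9.49, 9.07, 9.27 and 9.70 and 6.08, 6.35, 7.26 and 7.27. Its level fell by 2.64 (SE 0.29, adjusted p = 3.32e-06). H60b, a ligand of the NK receptor NKG2D, read 9.30, 8.77, 8.04 and 8.39 and 5.43, 5.88, 6.54 and 6.41. It fell by 2.56 (SE 0.33, adjusted p = 1.79e-05). Ephx1, an epoxide hydrolase, fell by 2.27 (SE 0.41, adjusted p = 0.000462), Cldn10, a claudin of tight junctions, fell by 2.29 (SE 0.48, adjusted p = 0.00146), and Cnga1, a cyclic nucleotide gated channel, fell by 2.21 (SE 0.27, adjusted p = 1.11e-05). For Ephx1 and Cldn10 the CD3 values of replicates 3 and 4 were the higher ones, at 11.001, 10.98, 11.88 and 11.82 for Ephx1 and 7.86, 7.48, 9.24 and 9.25 for Cldn10.

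MicroRNA genes were called in both directions. These probes read the precursor or its host transcript, not the mature miRNA, which this array does not measure. Of 155 miRNA genes tested 22 fell (14.2%, near the 13% of all genes tested) and 4 rose (2.58% against 16%). The counts were 14 lower and 6 higher after median centring, 14 lower without CD3CD28 replicate 1 or CD3 replicate 2, and 7 fell and 3 rose with replicates 3 and 4 alone. The mature sequences of the genes that the results turn on are shown from RefSeq, with the seed (bases 2 to 8, which pairs with targets) in capitals. The first 3 share the seed AGCAGCA and the next 3 the let-7 seed GAGGUAG:

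miR-15b-5p: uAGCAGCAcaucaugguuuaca

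miR-16-5p: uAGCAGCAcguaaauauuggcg

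miR-15a-5p: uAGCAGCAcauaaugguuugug

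let-7d-5p: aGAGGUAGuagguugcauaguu

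let-7f-5p: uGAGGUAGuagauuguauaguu

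let-7g-5p: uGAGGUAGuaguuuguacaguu

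miR-142a-3p: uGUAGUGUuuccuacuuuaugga

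miR-342-3p: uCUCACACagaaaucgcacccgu

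miR-363-3p: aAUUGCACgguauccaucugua

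miR-155-5p: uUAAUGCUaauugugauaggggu

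The largest fall was at Mir142, a miRNA gene of blood cells, which read 9.74, 9.55, 9.72 and 9.55 under CD3 and 7.72, 7.55, 8.34 and 7.08 under CD3CD28, a difference of -1.97 (SE 0.26, adjusted p = 1.92e-05), with no overlap of the groups. Among genes with the AGCAGCA seed, which is known for targeting cyclins and Bcl2, Mir15b read 6.67, 6.08, 7.01 and 7.33 and 4.76, 5.12, 5.45 and 5.63. The gene fell by 1.53 (SE 0.27, adjusted p = 0.000351). Mir16-2, its neighbour, read 6.26, 6.05, 6.25 and 6.62 and 5.10, 4.85, 5.04 and 5.34, near background with anti-CD28, and fell by 1.21 (SE 0.16, adjusted p = 2.66e-05). Both lie within the gene Smc4, whose own level did not pass the test (-0.11). Mir15a fell by 0.58 (SE 0.17, adjusted p = 0.0157), which no longer passed without CD3CD28 replicate 1 (adjusted p = 0.0666) or CD3 replicate 3 (0.0555). The other genes with this seed, Mir195a (-0.04) and Mir497 (-0.28), did not pass, so 3 of 5 tested fell and none rose. Mir15b and Mir16-2 lie side by side, so their falls may not be separate. Mir497 did pass with the replicate number as a block (adjusted p = 0.00755), without CD3 replicate 1 (0.0369) and without CD3CD28 replicate 4 (0.0239).

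Of 6 let-7 genes tested 4 fell and none rose, where 14.2% of all miRNA genes and 13% of all genes tested fell. Mirlet7a-1, Mirlet7f-1 and Mirlet7d lie close together on the minus strand of chromosome 13, between 48536024 and 48538260. Their probes may read a shared transcript, so these falls may not be separate. Mirlet7d read 8.21, 8.02, 7.63 and 7.98 and 6.995, 7.42, 7.26 and 6.97. Its level fell by 0.80 (SE 0.14, adjusted p = 0.000378), with no overlap of the groups. Mirlet7f-1 fell by 0.70 (SE 0.19, adjusted p = 0.00919) and Mirlet7g fell by 0.69 (SE 0.17, adjusted p = 0.00517); with replicates 3 and 4 alone neither passed (adjusted p = 0.0738 and 0.442). Mirlet7a-1, the fourth, did not hold under either rescaling of the arrays (adjusted p = 0.0649 after quantile normalization and 0.0516 after median centring), nor without CD3 replicate 1 (0.052), CD3 replicate 2 (0.0841), CD3CD28 replicate 2 (0.0553) or CD3CD28 replicate 3 (0.0637), nor with replicates 3 and 4 alone (0.124). Mirlet7g lies within Wdr82, which did not pass the test (-0.05). Mir342 fell by 1.03 (SE 0.16, adjusted p = 8.58e-05), and its host Evl fell by 1.00 (SE 0.12, adjusted p = 5.13e-06).

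Higher miRNA genes were Mir363, Mir155, Mir17hg and Mir19b-1. Mir19b-1 (0.64) is of the cluster that Mir17hg hosts, so these 2 rises may not be separate. Mir17 of that cluster had a difference of 0.30 and did not pass. Mir25 (0.13) and Mir92b (-0.03), which share the seed of Mir363, did not pass either. Mir363, of a cluster related to that of Mir17hg, read 4.99, 4.68, 3.998 and 5.42 under CD3, near background, and 6.35, 6.22, 7.15 and 6.79 under CD3CD28. It rose by 1.85 (SE 0.29, adjusted p = 0.000106). Mir17hg, the host transcript of a miRNA cluster that drives lymphocyte growth, rose by 0.65 (SE 0.11, adjusted p = 0.000183) from 8.12, 7.88, 7.97 and 7.91 to 8.54, 8.90, 8.51 and 8.53, without overlap. Mir155, a miRNA of activated lymphocytes, rose by 0.79 (SE 0.25, adjusted p = 0.0236) with overlapping groups, 7.63, 7.61, 7.19 and 6.96 against 8.24, 8.71, 7.44 and 8.13; it did not pass with replicates 3 and 4 alone (adjusted p = 0.0824) nor without CD3CD28 replicate 1 (0.0615), CD3CD28 replicate 2 (0.0971), CD3 replicate 3 (0.0601) or CD3 replicate 4 (0.0864). Mir150, a miRNA of resting lymphocytes, read 7.16, 7.29, 6.999 and 7.17 and 6.77, 7.09, 7.07 and 7.09 and did not pass, at -0.15 (SE 0.11, adjusted p = 0.341).

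**Figure D4:**
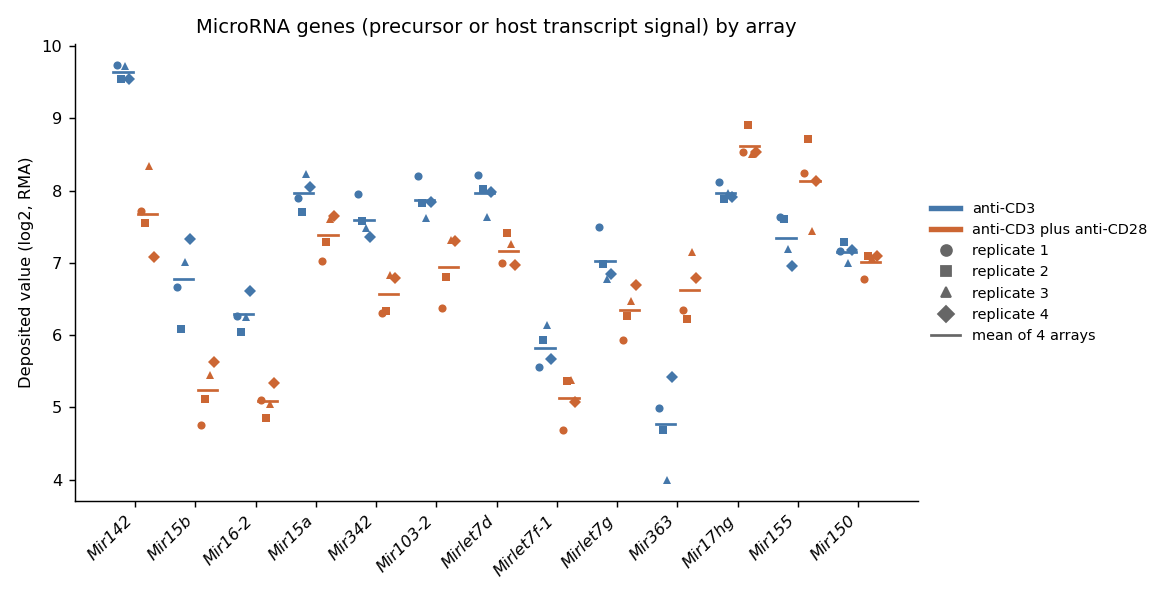
Deposited log2 values (vertical axis) of 13 miRNA genes on the 4 CD3 arrays (blue) and 4 CD3CD28 arrays (orange); symbols mark replicates 1 to 4 and short lines the group means. Mir142 lies between 9.55 and 9.74 without and between 7.08 and 8.34 with anti-CD28, Mir363 moves up, and the groups of Mir150 overlap.

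The same comparison was available in cells without Dec1. No gene of 16427 tested (0%) differed between knock-out and wild type in the effect of anti-CD28 after limma's adjustment. At an unadjusted limma p under 0.05 there were 867 of the 16427. With no difference at all a share of about 0.05 would pass, so that count of the main fit is near the chance level. The count depended on the fit. It was 1642 with the replicate number as a block and 1498 with array weights, both above that level, with 0 genes called after adjustment. Replicates 1 and 2 alone gave 2145, and replicates 3 and 4 alone gave 429. With replicates 1 and 2 alone, 80 genes were called after adjustment. The genotypes share no arrays. Of the 4770 genes called in wild-type cells, 4742 (99.4%) had a difference of the same sign in knock-out cells. The same share over all genes tested was not computed. The difference in knock-out cells was 3.93 for Il2, 4.78 for Bub1, -2.75 for Il7r and -2.28 for S1pr1. For Capg, an actin capping protein, it was -0.40 in knock-out cells against -1.48 in wild-type cells, and for Spry1 -0.50 against -1.20, neither of which passed the test of the difference.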

How the data were processed

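Total RNA of the cultured cells was hybridised to Affymetrix mouse gene arrays, 1 array per sample, after biotin labelling and Trizol extraction per the labels. The deposited values are log2 RMA values that the authors made, per the submitters' processing notes, which name no version of RMA. Of 35556 probes, 21789 map to a single gene symbol in the platform's probe table, 1621 to several and 12146 are not listed there; only the first were used. Probes above the 25th percentile of their array on at least 4 arrays were kept (17930), and the probe of highest mean stood for each of 861 genes with more than 1, leaving 16427 genes. The groups came from the labels.

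A linear model with 1 mean for each of the 4 groups of genotype and stimulus was fitted to all 16 arrays with limma 3.58.1 in R 4.3.3 (lmFit, contrasts, eBayes, 2-sided), so that the knock-out arrays add to the estimate of spread (12 residual degrees of freedom, 4.92 prior). A gene was called at a Benjamini-Hochberg adjusted p under 0.05 over all genes tested. The difference between genotypes was the interaction contrast. A level was near background where all 4 arrays of a group were at or under the 25th percentile of their array; with no background probes in the deposited table this is a rank and not a detection call, and the number of arrays limits the precision. RMA compresses differences of dim probes. The fitting code was tested on simulated data before use.

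Genes named in the text were the 20 largest rises and 20 largest falls without overlap, the 5 members of smallest p in each list and up to 3 called against its majority, and a panel of T cell genes; the others are Socs1, Socs2, Socs3, Srgn, Foxp3, Il1a, Tnfsf4, Dgka, Cxcr4, Txk, Btg2, Cdc6, Rrm2, Exo1, Brca1, Cdk1, Plk1, Cenpa, Cenpt, Smc4, Pold1, Pold2, Xist, Kdm5d, the PYHIN genes Ifi213, Ifi203, Ifi207 and Aim2, the miRNA genes beyond the rule, and the hosts Wdr82 and Evl, chosen after their values were seen. The comparison, its gene lists and its rule were chosen with earlier results of these data known. Lists are described by counts and medians, with no test over a list. Groups share replicate numbers in the sample titles. Deviations of same-numbered arrays from their group means correlated at 0.157 to 0.369 between the wild-type CD3 and CD3CD28 groups. The median for unlike numbers was -0.065. Such correlations were not computed for the knock-out groups. The numbers may therefore pair the samples, but the labels state no block and the main fit was unpaired. A fit with the replicate number as a block was an alternative. Other alternatives were 2 rescalings, 2 filters, the mean of a gene's probes, every probe alone, array weights, trended robust moderation, the 8 wild-type arrays alone, either pair of replicates alone, and each wild-type array left out in turn. Promoter windows, cut to the 250 bases before each RefSeq start, and mature miRNAs were read from RefSeq tables on GRCm38.p6 with Python 3.11.15; 12877 tested genes had a window, and 24 of 26 called miRNA genes matched a mature sequence. Promoters on chromosome 18 were left out when choosing those to print.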

Additional observations from a re-analysis of the deposited data

Results flagged for a closer look

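For 193 genes of the text, each wild-type group of 4 arrays was searched for an array far from the others, measured as its gap to the nearest other array divided by the range of the group. Of 386 groups 29 held one (7.5%). Chance gives about 1 in 20 for a single group, but these genes are not a neutral set. Several, among them Xist, Kdm5d, Pold1 and Pold2, were named after their values were seen, and all genes share the same arrays. The share is therefore a description and no test of an excess. The values below are that ratio, and no cause was tested. CD3 replicate 1 was the highest for Ctsw (0.851) and Xist (0.901). CD3 replicate 1 was the lowest for Kdm5d (0.928). CD3 replicate 2 was the lowest for Azin1 (0.862). CD3 replicate 3 was the highest for Fancd2 (0.915), Knl1 (0.867), Lmnb1 (0.859) and Slc43a3 (0.989). CD3 replicate 3 was the lowest for Mir195a (0.897). CD3 replicate 4 was the lowest for Mthfd2 (0.834) and Slc16a1 (0.924). CD3CD28 replicate 1 was the highest for Xist (0.893). CD3CD28 replicate 1 was the lowest for Kdm5d (0.915) and Mir150 (0.937). CD3CD28 replicate 2 was the highest for Mir17hg (0.939). CD3CD28 replicate 3 was the highest for Castor2 (0.868), Cdc25b (0.963), Cdkn1b (0.879), Cish (0.842) and Lef1 (0.854). CD3CD28 replicate 3 was the lowest for Dis3 (0.935) and Ifi207 (0.858). CD3CD28 replicate 4 was the highest for Azin1 (0.865), Brip1 (0.965) and Bub1 (0.85). CD3CD28 replicate 4 was the lowest for Pold1 (0.843), Pold2 (0.83), Rrm2 (0.83) and Scd2 (0.898).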

How the results depend on the processing

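The count of 4770 genes called for anti-CD28 in wild-type cells stayed between 3947 and 4983 when each of the 8 wild-type arrays was left out in turn. It was 4641 after quantile normalization, 4679 after median centring, 4649 with no filter, 4653 with a filter at the array median, 4758 with probes averaged, 4710 with trended robust moderation, 6549 with array weights and 4865 with the wild-type arrays alone. With every probe tested on its own 5213 were called. The replicate block, which pairs the arrays by number, gave 5800 (3090 higher, 2710 lower); of the genes named in the text it added calls for Cd28, Icos, Csf2, Pold1, Pold2 and Mir497 and changed no other. Replicates 3 and 4 alone gave 2650 (1454 higher, 1196 lower), a fit with fewer samples, and replicates 1 and 2 alone gave 5935. No gene called both in the full fit and under an alternative changed direction. The difference between genotypes, with 0 genes called, gave 80 with replicates 1 and 2 alone, and 0 under each other alternative that holds both genotypes; the cause was not tested. Of 427 genes in the named set and the genes added to it, 85 lost their call under at least 1 alternative and none reversed; the 15 of these that the text names are given there with their values. Medians of the BCL2 family, chemokine, polyamine and erythroid marker lists changed sign under both rescalings, and those of the CD28 family, ERK feedback, ribosomal protein and TGF-beta, Notch and WNT lists under median centring. Limits: 8 arrays, 24 h, whole cultures, no unstimulated cells, and no source for the replicates; differences of dim probes are compressed, and a miRNA gene's signal is not the mature miRNA.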

Other observations

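Cytoskeletal genes changed in both directions with anti-CD28. Of 31 genes for actin and tubulin 5 rose (16.1%, near the 16% of all genes tested) and 12 fell (38.7% against 13%). Their median was -0.24 against -0.03 over all genes tested. With replicates 3 and 4 alone 3 rose and 5 fell. Without CD3 replicate 1 or 4 or CD3CD28 replicate 1 or 2, 3 rose. Vim, the intermediate filament protein vimentin, read 9.30, 9.04, 9.15 and 9.01 under CD3 and 10.16, 9.85, 11.19 and 11.10 under CD3CD28 and rose by 1.45 (SE 0.29, adjusted p = 0.00103), with replicates 3 and 4 the high pair. Tubg1, the gamma tubulin of the centrosome, rose by 1.15 (SE 0.14, adjusted p = 8.56e-06), while Tubb2a, a beta tubulin, fell by 0.78 (SE 0.13, adjusted p = 0.000158) and Capg fell by 1.48 (SE 0.26, adjusted p = 0.000304). Of 13 genes of the gp130 and STAT3 pathway 4 fell and 2 rose, but none rose without CD3 replicate 1, 2 or 4 or CD3CD28 replicate 1 or with replicates 3 and 4 alone, and 1 rose without CD3 replicate 3 or CD3CD28 replicate 2 or 4. Il6ra, the receptor of IL-6, read 9.23, 9.04, 9.39 and 9.49 under CD3 and 7.46, 7.91, 8.70 and 8.42 under CD3CD28 and fell by 1.17 (SE 0.23, adjusted p = 0.000985).

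Polyamine enzymes opposed each other. Odc1, the first enzyme of polyamine synthesis, read 11.75, 11.82, 11.80 and 11.51 under CD3 and 12.35, 12.45, 12.15 and 12.25 under CD3CD28 and rose by 0.58 (SE 0.10, adjusted p = 0.000364), and Azin1, which protects that enzyme, rose by 0.60 (SE 0.10, adjusted p = 0.000322). Oaz2, an antizyme that leads it to the proteasome, fell by 0.71 (SE 0.16, adjusted p = 0.00226). For each of the 3 genes the groups did not overlap. Of 9 polyamine genes tested 3 rose and 2 fell (2 rose without CD3CD28 replicate 1 or after quantile normalization, and 1 fell without CD3 replicate 4).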
